A study of Homo sapiens with 2 samples.

Results

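From a table of 1450 mature miRNA entries of Jurkat cells, 7 were picked that are known to overlap or resemble a small nucleolar RNA (snoRNA), the U2 spliceosomal RNA (a small nuclear RNA, snRNA) or ribosomal RNA (rRNA). They were hsa-miR-1291, hsa-miR-664a-3p, hsa-miR-664a-5p, hsa-miR-664b-3p and hsa-miR-1248 for snoRNA, hsa-miR-1246 for U2 and hsa-miR-663a for rRNA. They were chosen by name from what is known of their sequence, not by their values, although earlier results of these data were known. All 7 of 7 were listed. They are not every such entry of the table, and others are given further on. Small RNA of Jurkat cells, a line from human T-cell leukemia, was sequenced to find transcripts that change with PELATON, a long noncoding RNA that the sample labels call lnc-CEBPB-13. The group labelled overexpression carried a PELATON lentivirus and the group labelled control carried a control lentivirus, and in both groups the infected cells were kept under puromycin to obtain stably transduced lines. The deposited table gives 1 mean for each group, in normalized counts (reads divided by a size factor of the library), and each mean could be resolved into the whole reads of 2 libraries, here called A and B, letters that pair nothing. The table lists mature miRNAs only, so PELATON itself has no value in it. Which column is overexpression was therefore taken from the labels alone and could not be checked in the data. The sources used here do not give one direction for this comparison, and if the labels were exchanged every log2 ratio and difference printed here would change sign.

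The overexpression libraries held 2052494 and 1177485 reads, against 2615868 and 2663279 reads in the control libraries. The 10 most abundant entries took between 54.4% and 54.9% of the reads of a library. Whether these libraries are separate cultures of a group is not stated in the sources used here, and each p-value therefore measures only the spread between these libraries, which may be technical.

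A miRNA is cut from a hairpin by Drosha and Dicer and then guides Argonaute to target transcripts through its seed, the bases 2 to 8 of the mature strand. Box H/ACA snoRNAs fold into hairpins of their own and guide the conversion of uridine to pseudouridine in rRNA and snRNA, and U2 snRNA pairs with the branch point of introns during splicing. Fragments of these abundant RNAs have the size of a miRNA, and some snoRNA hairpins are cut by Dicer, so a short read with such a sequence does not by itself tell from which of the processes it came.

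The mature sequences are shown because the sequence is what puts these entries together. They are those of RefSeq on GRCh38.p14, written 5′ to 3′ with the seed in capitals.
hsa-miR-1291: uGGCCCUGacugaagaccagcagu
hsa-miR-664a-5p: aCUGGCUAgggaaaaugauuggau
hsa-miR-664a-3p: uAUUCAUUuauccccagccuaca
hsa-miR-664b-3p: uUCAUUUGccucccagccuaca
hsa-miR-1248: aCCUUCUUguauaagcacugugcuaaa
hsa-miR-1246: aAUGGAUUuuuggagcagg
hsa-miR-663a: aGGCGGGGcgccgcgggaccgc

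No seed was shared among the 7. The 3p strands of the miR-664a and miR-664b hairpins are nonetheless related, with a common run of 11 bases at their 3′ ends. Their seeds differ because the start of the strand differs.

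The same stretches stand inside longer RNAs, and 30 bases of each are shown with the mature entry in capitals to place it in the snoRNA or snRNA. These come from the GENCODE annotation of GRCh38 and carry T for U.
SNORA2C, positions 1 to 30 of 137: gTGGCCCTGACTGAAGACCAGCAGTtgtac
SNORA36B, positions 65 to 94 of 131: gaaACTGGCTAGGGAAAATGATTGGATaga
SNORA36B, positions 102 to 131 of 131: attcTATTCATTTATCCCCAGCCTACAaaa
SNORA36A, positions 103 to 132 of 132: ttctaTTCATTTGCCTCCCAGCCTACAaaa
SNORA81, positions 1 to 30 of 178: ACCTTCTTGTATAAGCACTGTGCTAAAatt
RNU2-1, positions 89 to 118 of 191: tattaAATGGATTTTTGGAGCAGGgagatg

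All 5 snoRNA entries lay whole inside an annotated snoRNA on the same strand, each of them a box H/ACA RNA by its SNORA name. hsa-miR-1291 (chr12:48654494-48654517, minus strand) covered positions 2 to 25 of SNORA2C, which sits within KANSL2 outside the annotated exons of that gene. KANSL2 encodes a subunit of a histone acetyltransferase complex. hsa-miR-1248 (chr3:186786675-186786701, plus strand) covered positions 1 to 27 of SNORA81, in a stretch of EIF4A2, a translation initiation factor gene, where at least 1 annotated transcript has an exon.

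Both arms of miR-664a were in SNORA36B, within RAB3GAP2 outside its annotated exons. The 5p strand (chr1:220200586-220200609, minus strand) covered positions 68 to 91 and the 3p strand (chr1:220200549-220200571, minus strand) positions 106 to 128. hsa-miR-664b-3p (chrX:154768635-154768656, plus strand) covered positions 108 to 129 of SNORA36A, within DKC1, the gene of the pseudouridine synthase dyskerin that works with H/ACA RNAs. At least 1 annotated DKC1 transcript has an exon there, and the whole mature sequence is also in SNORA36C, so its reads cannot be assigned to 1 locus. SNORA36A and SNORA36B are related RNAs, with 108 identical bases in an ungapped comparison of 132 and 131 bases.

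The ends of the miR-664a and miR-664b entries coincide with a landmark of the snoRNA. In H/ACA RNAs the triplet ACA lies 3 bases before the 3′ end, and both 3p strands ended exactly on it, with 3 bases of the snoRNA left. That spacing, searched as ACA followed by 3 bases at the end of the given strand, was found in 112 of 149 annotated transcripts named SNORA (75.2%) and in 281 of 955 snoRNA transcripts of all kinds (29.4%). The annotated SNORA81 did not have it.

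**Figure D1:**
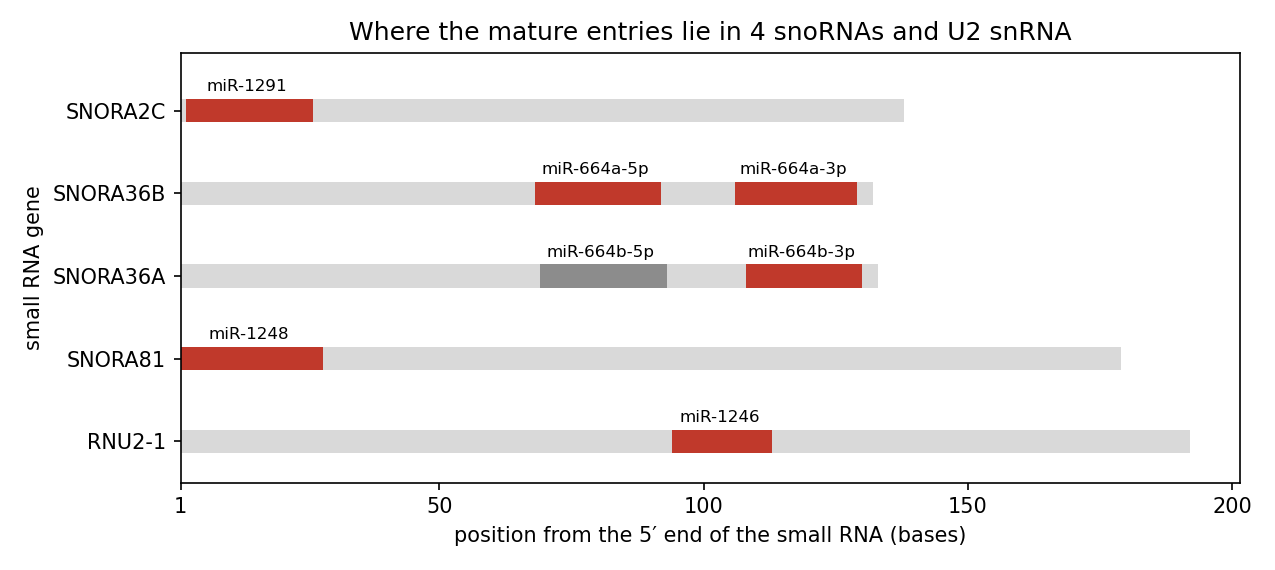
Position of the mature entries (red) in 4 snoRNAs and in U2 snRNA (RNU2-1), in bases from the 5′ end of each RNA (grey bar), with the other arm of miR-664b in dark grey. hsa-miR-1291 and hsa-miR-1248 lie at the start of their snoRNA, while the 3p strands of miR-664a and miR-664b end 3 bases before the end of theirs.

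hsa-miR-1246 has a hairpin gene of its own (chr2:176601024-176601042, minus strand). No annotated protein-coding, processed transcript or long intergenic noncoding RNA gene lies over it, and other gene types were not searched. Its 19 bases were also found whole in 19 annotated snRNA transcripts, among them RNU2-1 on chromosome 17 at positions 94 to 112 of 191. Several of these transcripts, such as RNU2-33P, have the names of pseudogenes. The reads of hsa-miR-1246 can thus belong to the hairpin, to U2 or to such related copies, and its values are uncertain as to their source. hsa-miR-663a (chr20:26208243-26208264, minus strand) lies in an exon of MIR663AHG, its noncoding host gene. It was found whole in none of the annotated snoRNA, snRNA, small Cajal body RNA (scaRNA) or rRNA transcripts. Its best ungapped match among 52 rRNA transcripts had 13 of 22 identical bases, fewer than the 15 of 22 with SNORD88A. The large rRNA precursor was not used here, so the likeness of hsa-miR-663a to rRNA could not be checked.

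The 7 entries spanned about 3 orders of magnitude. The entries are mature strands of 19 to 27 bases, so levels are compared as normalized counts, without division by length. Aligner and annotation are not given, so how a read that matches several entries was counted is not known here. hsa-miR-1246 stood highest, with a mean over both groups of 15951 normalized counts and a rank between 19 and 29 in the 4 libraries. hsa-miR-1291 followed at 196, then hsa-miR-663a at 152, hsa-miR-664a-3p at 103, hsa-miR-1248 at 51.9, hsa-miR-664a-5p at 43.0 and hsa-miR-664b-3p at 16.9. The ranges over the 4 libraries overlapped between hsa-miR-1291 and hsa-miR-663a, between hsa-miR-663a and hsa-miR-664a-3p, and between hsa-miR-1248 and hsa-miR-664a-5p. Every other pair of neighbours in this order was separated in all 4 libraries. hsa-miR-663a varied most, with its highest library at 8.14 times its lowest, and hsa-miR-1248 least, at 1.36 times.

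**Figure D2:**
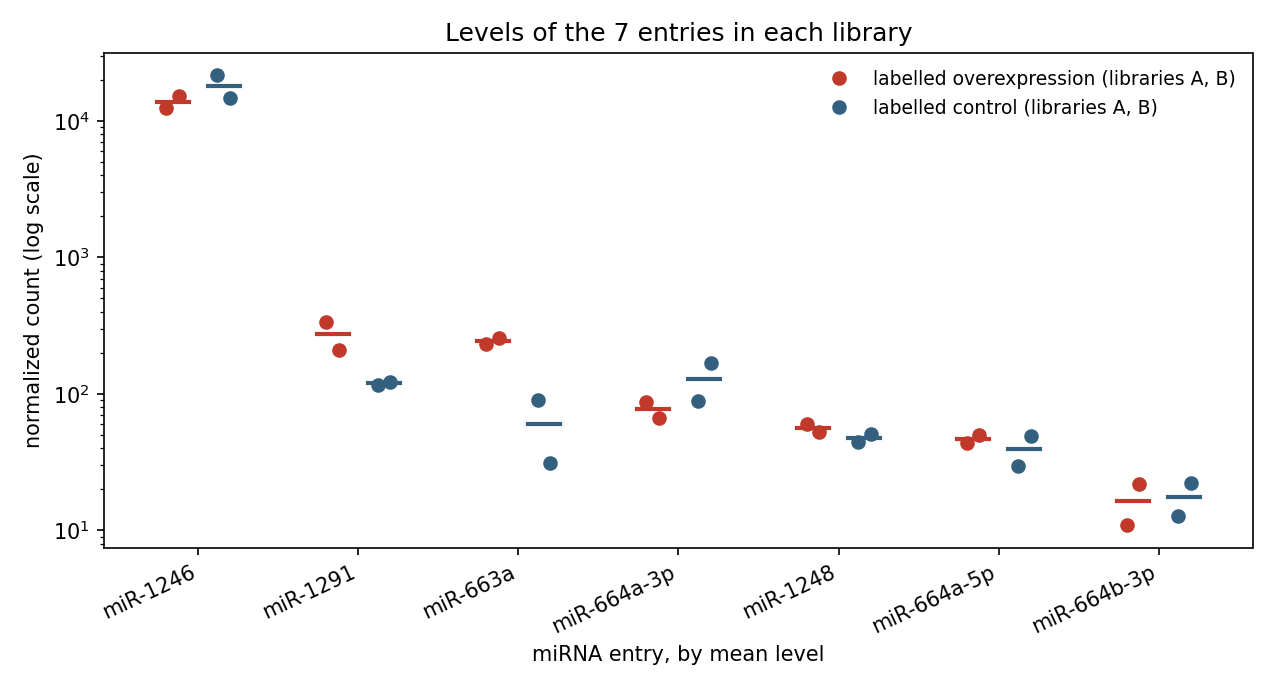
Normalized count of each entry (log scale) in the 2 libraries labelled overexpression (red, left) and the 2 labelled control (blue, right), with library A left of B and a bar at the mean of each group. hsa-miR-663a and hsa-miR-1291 are higher in both overexpression libraries than in either control library, and hsa-miR-1246 overlaps between the groups at a level far above the other entries.

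Of the 7, 2 were at least 2-fold higher in the overexpression mean (hsa-miR-663a and hsa-miR-1291) and 0 at least 2-fold lower. Among the 1115 entries with a mean of at least 1 normalized count, 15.6% were higher and 14.7% lower by the same rule, which uses log2 of the mean plus 1 and has no test. Among the 588 entries with a mean of at least 10, which hold all of the 7, 48 were higher and 56 lower. With limma on the 4 libraries, on log2(normalized count + 1) and with Benjamini-Hochberg adjustment over the 1115 entries, 1 of the 7 was higher at an adjusted p under 0.05 (hsa-miR-663a) and 0 were lower. limma called 1.88% of all entries higher and 3.05% lower, that is 21 and 34 entries, and 16 higher and 8 lower when the reads were scaled to library totals. At 2-fold that scaling gave 224 higher and 105 lower, against 174 and 164. Without that scaling, limma at an unadjusted p under 0.05 gave 2 of the 7 as higher and 0 as lower. The shares of all entries were 8.43% and 10.1%. With that scaling, limma gave the same counts of the 7, beside 142 higher and 66 lower of 1094 entries. The median log2 ratio of overexpression over control was 0.24 for the 7 entries, with a range of -0.73 to 1.99, beside 0.06 for all entries tested. Fold changes on this scale understate the difference of low entries.

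hsa-miR-663a rose in the libraries labelled overexpression, and by the most of the 7. It is known as a GC-rich miRNA found in primates. Its libraries held 231 and 256 normalized counts under overexpression (254 and 165 reads), against 89.7 and 31.4 in control (112 and 37 reads). Both overexpression libraries were above both control libraries, and the control libraries differed from each other more than the overexpression libraries did. The means were 243 and 60.5, a log2 ratio of 1.99. limma gave a log2 difference of 2.17 with an SE of 0.45 and a 95% interval of 1.14 to 3.20 (adjusted p = 0.0330, Benjamini-Hochberg). From the pooled reads the ratio was 3.91 (exact 95% interval 3.24 to 4.75), which covers counting error only, as do all such intervals here.

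The call for hsa-miR-663a did not hold under several settings. Its adjusted p by limma was 0.0707 when the reads were scaled to library totals and 0.323 with a prior variance that had no trend, a fit that called 0 of all entries, with 68 higher and 74 lower at an unadjusted p under 0.05. It was between 0.102 and 0.474 with 1 library left out, where the lone library of a group is assumed to vary like the others. The difference stayed positive in each of these fits, between 1.43 without control library B and 2.91 without control library A. The gap between the 2 control libraries was 1.48 on the log2 scale, and 32 of 588 entries with a mean of at least 10, itself included, had one as large in control, where the median gap was 0.34.

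hsa-miR-1291, whose direction likewise rests on the labels, had 336 and 211 normalized counts in the overexpression libraries (370 and 136 reads), against 116 and 122 in the control libraries (145 and 144 reads). The control libraries were nearly equal and both overexpression libraries lay above them, library A further than library B. The means were 273 and 119, a log2 ratio of 1.19, and from the pooled reads the ratio was 2.43 (exact 95% interval 2.10 to 2.82). limma gave a log2 difference of 1.15 with an SE of 0.29 and a 95% interval of 0.50 to 1.81, which missed the threshold (adjusted p = 0.0614, Benjamini-Hochberg over 1115 entries). It passed by limma where only entries with a mean of at least 10 were tested (adjusted p = 0.0325) and with a pseudocount of 5 (adjusted p = 0.0358). Without overexpression library A the log2 ratio was 0.82, under 2-fold.

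The 2 arms of miR-664a come from 1 hairpin and 1 snoRNA, and their log2 ratios lay on opposite sides of 0. hsa-miR-664a-3p had 87.2 and 66.6 normalized counts under overexpression (96 and 43 reads), against 88.1 and 169 in control (110 and 199 reads). Overexpression library A was within 1 normalized count of control library A, and the separation of the groups came from control library B. The log2 ratio was -0.73, and limma gave -0.67 with an SE of 0.37 (adjusted p = 0.404, 95% interval -1.52 to 0.18). Without control library B the log2 ratio was -0.19.

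hsa-miR-664a-5p had 43.6 and 49.6 normalized counts in the overexpression libraries (48 and 32 reads), against 29.6 and 49.2 in control (37 and 58 reads). The groups overlap. The limma log2 difference was 0.28 with an SE of 0.41 (adjusted p = 0.785), and it was -0.080 without control library A.

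Within each library the ratio of the arms does not depend on scaling. The 3p strand made up 66.7% and 57.3% of miR-664a reads in the overexpression libraries, against 74.8% and 77.4% in control. The exact 95% intervals were 58.3 to 74.3% and 45.4 to 68.7% under overexpression, against 67.0 to 81.6% and 71.8 to 82.4% in control. Both overexpression libraries lay below both control libraries, although the interval of overexpression library A overlaps those of both control libraries and the interval of overexpression library B that of control library A. The log2 ratio of 3p over 5p reads averaged 0.71 under overexpression and 1.68 in control, a difference of -0.96, and it stayed between -1.25 and -0.68 with 1 library left out. Of 96 hairpins with at least 20 reads of each arm in every library, 27.1% were separated in this direction and 41.7% in the other, and 3, miR-664a among them, had a difference at least as far below 0. No test of this difference was run.

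The reads of miR-664b were few. hsa-miR-664b-3p had 10.9 and 21.7 normalized counts in the overexpression libraries (12 and 14 reads), against 12.8 and 22.1 in control (16 and 26 reads), and the groups overlap. The limma log2 difference was -0.12 with an SE of 0.61 (adjusted p = 0.940), and its 95% interval, -1.51 to 1.27, holds differences of over 2-fold either way. The other arm, hsa-miR-664b-5p, had 12 and 1 reads under overexpression, against 6 and 14 in control, so that the 3p strand made up 12 of 24 reads in one overexpression library and 14 of 15 in the other. A change of arm was not detectable at this depth.

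hsa-miR-1248 varied least. It had 59.9 and 52.7 normalized counts under overexpression (66 and 34 reads), against 44.0 and 50.9 in control (55 and 60 reads). The groups do not overlap, by under 2 normalized counts. limma gave 0.24 on the log2 scale with an SE of 0.35 (adjusted p = 0.785, 95% interval -0.55 to 1.03).

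By separation alone, 3 of the 7 had both overexpression libraries above both control libraries (hsa-miR-663a, hsa-miR-1291 and hsa-miR-1248) and 1 had both below (hsa-miR-664a-3p). Of all entries tested, 22.4% were separated upward and 23.8% downward. These counts used only the size factors recovered from the deposited means and were not repeated under the other scalings, which can change a narrow separation.

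hsa-miR-1246, the U2 entry, had 12341 and 15277 normalized counts in the overexpression libraries (13587 and 9861 reads), against 21516 and 14671 in control (26878 and 17291 reads). Control library A was highest, and control library B lay between the 2 overexpression libraries. From the pooled reads the ratio was 0.738 (exact 95% interval 0.726 to 0.750), with a narrow interval because the reads are many, while the spread between libraries was wider. limma gave a log2 difference of -0.37 with an SE of 0.21 and a 95% interval of -0.86 to 0.12 (adjusted p = 0.421). hsa-miR-1290, chosen here after its values were seen, shares a run of 12 bases with hsa-miR-1246 and 16 of 19 bases in an ungapped comparison. It had 3628 and 4961 normalized counts under overexpression, against 6260 and 3830 in control, so that both entries were lowest in overexpression library A and highest in control library A.

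**Figure D3:**
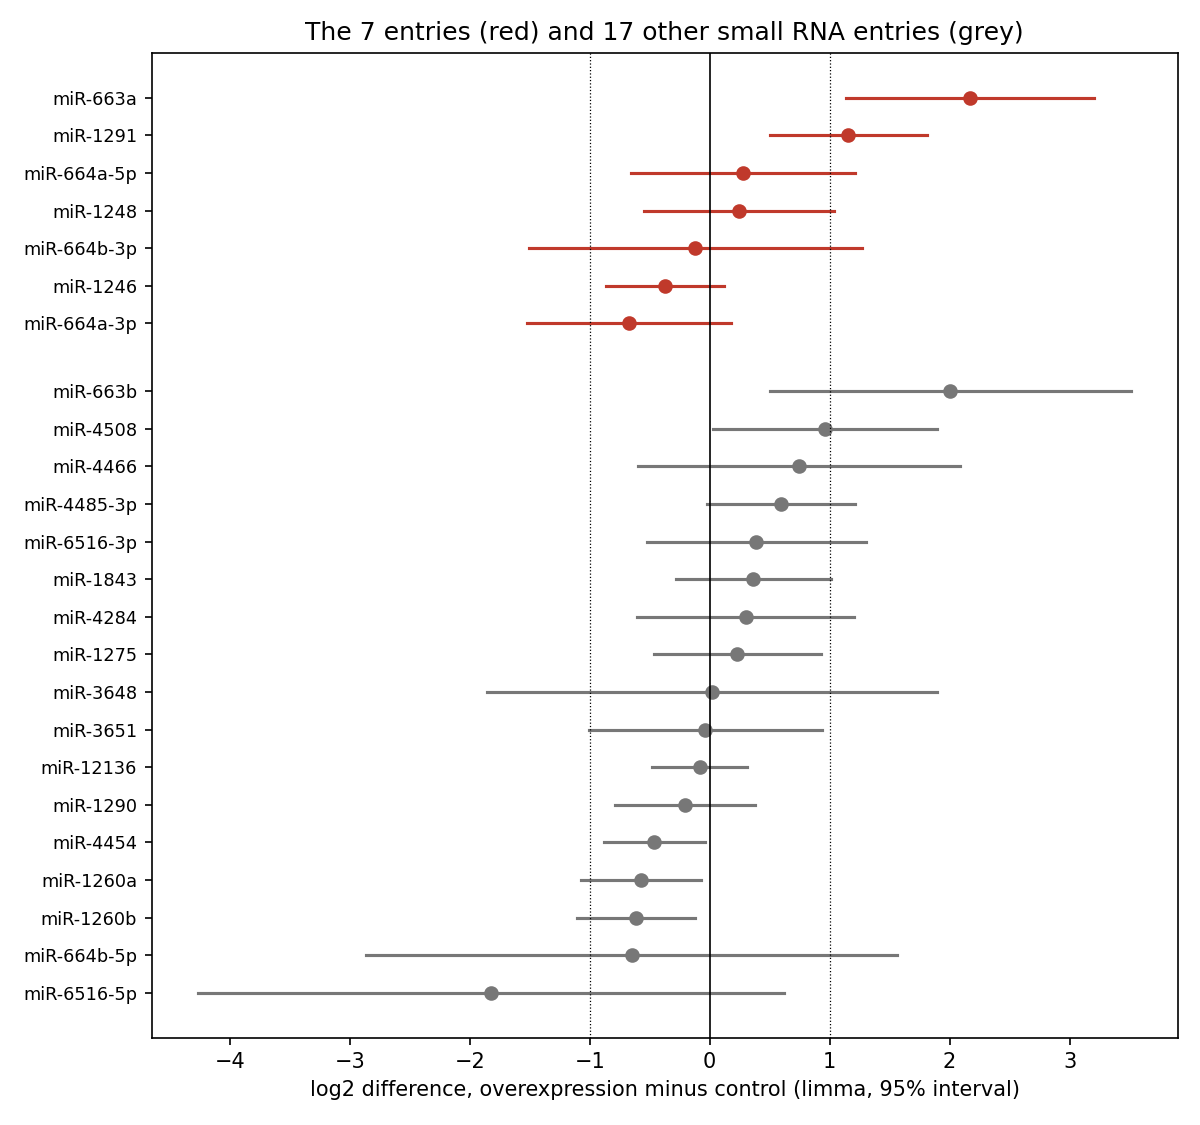
Log2 difference of overexpression minus control by limma (points) with its 95% interval (lines) for the 7 entries (red) and for 17 other entries tested that are named for, lie in or share their sequence with other small RNAs (grey); dotted lines mark 2-fold. hsa-miR-663a at 2.17 and hsa-miR-1291 at 1.15 have intervals above 0, as have hsa-miR-663b and hsa-miR-4508 among the grey entries, while hsa-miR-1260a, hsa-miR-1260b and hsa-miR-4454 have intervals below 0; none of these 5 grey entries passed after adjustment.

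Other entries of the same kind did not share one direction. A list of 20 entries written from their names, with relatives of the 7 and entries tied to other snoRNAs, rRNA or tRNA, had 13 in the table. Their median log2 ratio was -0.04, beside 0.06 for all entries tested, with 1 at least 2-fold higher, 1 at least 2-fold lower and 0 called by limma after adjustment, where 2 of the 13 were higher and 3 lower at an unadjusted p under 0.05, beside 94 and 113 of the 1115 entries. The 5 entries besides the 7 that overlap an annotated snoRNA or scaRNA on the same strand had a median of -0.04, with 0 higher and 1 lower at 2-fold and 0 by limma even at an unadjusted p under 0.05. The lower entry is the same in both lists and has few reads, 5 and 0 under overexpression, against 13 and 6 in control. The 5 snoRNA entries among the 7 had a median of 0.24, with 1 at least 2-fold higher.

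The entry of that list at least 2-fold higher was hsa-miR-663b, a GC-rich entry with a name like that of hsa-miR-663a but a different seed. The 2 share a run of only 4 bases, with 10 of 22 identical in an ungapped comparison. hsa-miR-663b had 23.6 and 54.2 normalized counts under overexpression (26 and 35 reads), against 12.8 and 5.09 in control (16 and 6 reads). Both overexpression libraries were above both control libraries. limma gave a log2 difference of 2.01 with an SE of 0.66 (adjusted p = 0.150).

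Base composition moved with the ratio across the table. Among 973 tested entries with a RefSeq sequence, the median log2 ratio was -0.41 for 154 entries under 40% GC, -0.01 for 502 entries from 40 to 60%, 0.27 for 273 entries from 60 to 80% and 0.51 for 44 entries at 80% or more. The correlation of GC content with the log2 ratio, a description across entries that share libraries, was 0.20 by Pearson and 0.28 by Spearman. hsa-miR-663a has 90.9% GC, and 8 of the 973 entries, itself included, have as much. The fit of the ratio on GC gave 0.72 at that composition and left 1.27 of its log2 ratio of 1.99. hsa-miR-1291 has 58.3% GC, where the fit gave 0.15 and left 1.05. The part of GC content in these results was not tested further.

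**Figure D4:**
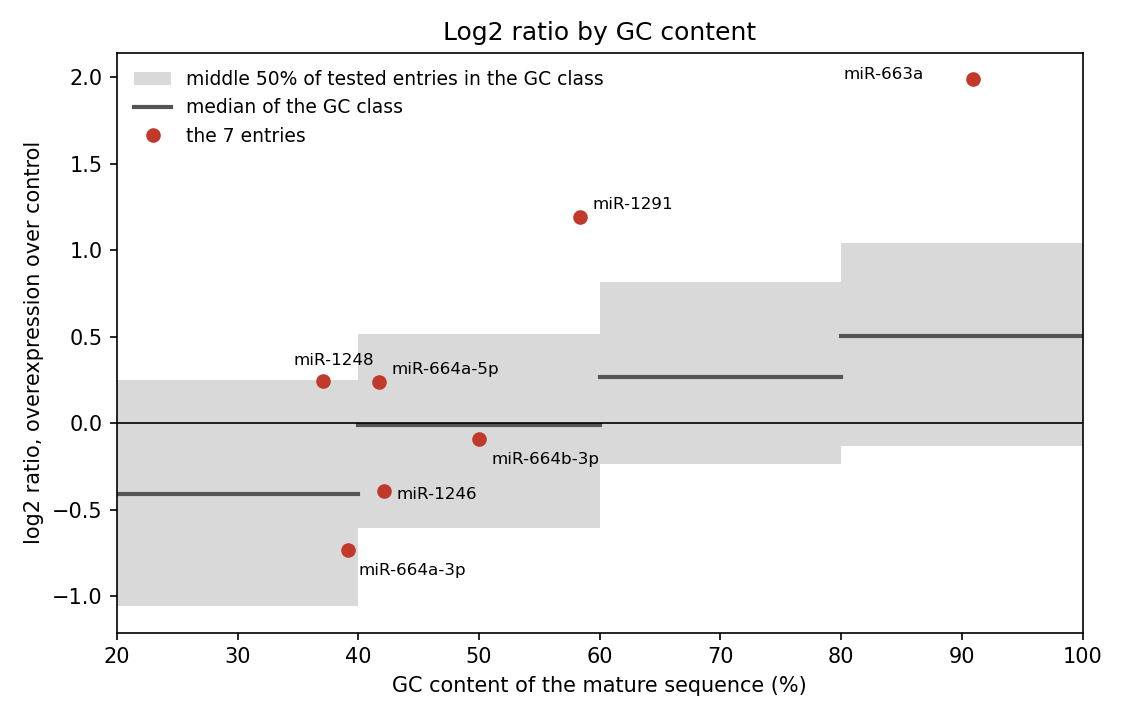
Log2 ratio of overexpression over control against GC content of the mature sequence for the 7 entries (red points), over the median (dark line) and the middle 50% (grey) of 973 tested entries in 4 classes of GC content. hsa-miR-663a, at 90.9% GC, and hsa-miR-1291, at 58.3%, lie above the grey area of their class, and the class medians run upward with GC content, from -0.41 under 40% to 0.51 at 80% or more.

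Entries with the closest pattern over the 4 libraries were found by Euclidean distance between centred log2(normalized count + 1) values, among 588 entries with a mean of at least 10. hsa-miR-4741 was nearest to hsa-miR-1291, at a distance of 0.05, with 121 and 72.8 normalized counts under overexpression, against 40.8 and 41.6 in control. hsa-miR-99b-5p and hsa-miR-5585-3p came next. For hsa-miR-664a-3p they were hsa-miR-324-5p, hsa-miR-548aq-3p and hsa-miR-18b-3p, and for hsa-miR-664a-5p hsa-miR-2277-5p, hsa-miR-196a-3p and hsa-miR-326. For hsa-miR-1248 they were hsa-miR-181c-5p, hsa-miR-27b-3p and hsa-miR-3944-3p, and for hsa-miR-1246 hsa-miR-548ae-5p, hsa-miR-129-5p and hsa-miR-1226-5p. hsa-miR-663a had no entry as close: hsa-miR-10396a-3p was nearest, at a distance of 0.46, with 20.9 and 29.4 normalized counts under overexpression, against 12.0 and 3.39 in control. It was followed by hsa-miR-127-3p and hsa-miR-4738-3p. With 588 entries and 4 libraries, near matches are frequent and say nothing of a link.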

How the data were processed

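Jurkat small RNA was measured in 1 sample labelled overexpression and 1 labelled control. The deposited signal values are the authors' mean normalized counts of each group, reads divided by DESeq size factors, on GRCh38.p14 by the submitters' processing notes; aligner and miRNA annotation are not given in the sources used here. The study's methods name a small RNA kit, while the labels describe an mRNA kit. The authors' own fold, log2 fold, p-value and adjusted p columns were not used; their headers set control over overexpression. Groups follow the labels, which could not be checked against a PELATON value, and the sources do not give one direction.

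Group means were resolved into whole reads of 2 libraries each (1450 of 1450 values with 1 solution, absolute tolerance 1e-09, relative 1e-12), checked on simulated data. Normalized counts, not raw counts, were compared by limma 3.58.1 (R 4.3.3; trended prior variance, pseudocount 1, mean of at least 1, two-sided). A floor of 3 reads per library was between 2.40 and 4.65 normalized counts.

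The 7 entries and all lists were chosen with earlier results of these data known. Named besides them were listed relatives with a mean of at least 10 that passed 2-fold or limma, other arms, and the 3 nearest profiles of entries with at least 20 reads in every library; exceptions are marked. RefSeq sequences matched 1285 of 1450 entries (88.6%). Alternatives were other scalings, pseudocounts, filters and fold thresholds, a loess fit on GC content (span 0.5) and leaving out each library.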

Additional observations from a re-analysis of the deposited data

How the results depend on the processing

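No paired analysis was possible because the groups share fewer than 2 replicate numbers. Depth limits the entries with few reads, hsa-miR-664b-3p first, and with 2 libraries a group 1 library can decide a value. Scaling to total reads moved the median log2 ratio of all entries by 0.22, leaving out the 10 most abundant entries by 0.21, upper-quartile scaling by -0.15 and TMM by -0.09, and changes of the 7 are to be read relative to that.

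Of the alternatives, 230 values kept their sign, or as counts stayed within 1.5 times. Among these, log2 ratios moved by less than the spread between libraries, and limma differences kept their side of the adjusted p threshold. A log2 ratio so counted could still cross 2-fold: that of hsa-miR-664a-3p was -1.12 without control library A. A further 6 moved by less than the spread between libraries but changed sign: the log2 ratio of hsa-miR-664b-3p was 0.15 under total scaling, 0.14 without the 10 most abundant entries, 0.30 without overexpression library A and 0.32 without control library B, that of hsa-miR-664a-5p was -0.077 without control library A, and the median of the other entries was 0.13 with the list of whole sequences. The others follow. By limma, hsa-miR-663a lost its call under scaling to total reads (2.40, adjusted p = 0.0707), without the 10 most abundant entries (2.39, adjusted p = 0.0752), with a pseudocount of 0.5 (2.18, adjusted p = 0.0546) and without a variance trend (2.17, adjusted p = 0.323). With 1 library left out its log2 difference was 1.43 to 2.91. Over the other settings its adjusted p ran from 0.00813 to 0.323. hsa-miR-1291 passed by limma with a pseudocount of 5 (1.13) and a mean of at least 10 (1.15), and its adjusted p ran from 0.0325 to 0.374. hsa-miR-664b-3p turned to 0.11 under total scaling and to 0.095 without the 10 most abundant entries, and ran from -0.58 to 0.35 with 1 library left out. hsa-miR-664a-5p ran from -0.080, without control library A, to 0.63.

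The log2 ratio with 1 library left out ran from 0.82 to 1.49 for hsa-miR-1291, from 1.43 to 2.91 for hsa-miR-663a, from -1.12 to -0.19 for hsa-miR-664a-3p and from -0.077 to 0.64 for hsa-miR-664a-5p. For hsa-miR-1248 it was 0.48 under total scaling, 0.47 without the 10 most abundant entries, 0.090 under upper-quartile scaling and 0.66 after the GC fit.

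At 4-fold 0 of the 7 were higher, and 1 was lower at 1.5-fold. With 1 library left out 1 to 2 of the 7 were higher and 0 to 1 lower at 2-fold. Of the 1082 to 1109 entries tested in these settings, 159 to 229 were higher and 161 to 240 lower by the same rule. limma called 0 of the 7 higher under total scaling, without the 10 most abundant entries, with a pseudocount of 0.5, without a variance trend and with any 1 library left out (1 to 2 at an unadjusted p under 0.05), and 2 with a pseudocount of 5 or a mean of at least 10.

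Over all entries at 2-fold, a pseudocount of 5 gave 64 higher and 57 lower, and a mean of at least 10 gave 48 higher and 56 lower of 588 entries. Thresholds of 1.5-fold and 4-fold gave 291 and 47 higher, and 287 and 23 lower. Under total scaling 105 were lower, and 107 without the 10 most abundant entries. limma called 8 lower under each of these scalings, 56 lower under upper-quartile scaling, and 0 higher and 0 lower without a variance trend. It called 26 higher and 42 lower with a pseudocount of 5, and 17 higher and 24 lower with a pseudocount of 0.5. Of the 588 entries with a mean of at least 10 it called 30 higher and 49 lower. With 1 library left out it called 0 to 1 higher and 0 to 69 lower, the 69 without control library B, and at an unadjusted p under 0.05 it gave 64 to 103 higher and 65 to 118 lower. Except where the construction of a setting gives it, the cause was not tested.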

Other observations

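Among the 1285 entries with a RefSeq sequence, 4 others share a seed with one of the 7. hsa-miR-6775-3p, with the seed of hsa-miR-1291 (GGCCCUG), had 7 and 12 reads in the overexpression libraries, against 1 and 1 in control, a direction that rests on the labels. hsa-miR-579-3p, with the seed of hsa-miR-664b-3p (UCAUUUG), had 6 and 10 reads under overexpression, against 23 and 20 in control. hsa-miR-1908-5p and hsa-miR-10396b-5p have the seed of hsa-miR-663a (GGCGGGG). hsa-miR-1908-5p had 649 and 956 normalized counts under overexpression, against 812 and 522 in control, and hsa-miR-10396b-5p had 9.08 and 29.4, against 7.20 and 5.09. By limma none of the 4 passed an adjusted p of 0.05 (adjusted p = 0.162, 0.589, 0.680 and 0.418 in that order). These entries were looked up after the values of the 7 were known.

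The mature sequences of those 1285 entries were also searched for, whole, in annotated small RNAs, a search added after the data were seen. Nuclear tRNA was not among these RNAs and the large rRNA precursor was not used, so entries tied only to those could not be found. The search found 9 entries besides the 7, in snoRNA, scaRNA, or mitochondrial tRNA or rRNA. Of these, 8 could be tested, with a median log2 ratio of 0.13, 0 at least 2-fold higher and 1 at least 2-fold lower, and 0 called by limma, also at an unadjusted p under 0.05. The lower entry is the same as in the other lists, with a mean of 5.01 normalized counts.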
